A study of Mus musculus with 5 samples.

Results

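Around Sost, the mouse gene for sclerostin, lies a gene-dense stretch of chromosome 11, and the genes described here are 50 of its residents. They were listed by name as genes near Sost, and each was read from the probe sets whose only platform gene symbol is that name. Of the 50, 48 had such a probe set and 2, Aoc2 and Arl4d, were not analysed here, against 18193 genes with a probe set in the whole series. RNA came from forelimb buds of C57Bl/6 mouse embryos at stage E11.5. The 2 double mutant arrays were from embryos of genotype Sost-/-; Sostdc1-/-, which lack Sost and its paralog Sostdc1, and the 3 wild type arrays were from embryos with neither mutation. The design text calls the arrays biological replicates and says that no embryos were pooled, and the labels used here do not say which part of each gene was deleted, how the alleles were made or whether the wild type embryos were littermates. The study's title ties Sost and Sostdc1 to digit number in the limb.

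Sclerostin is secreted, binds LRP co-receptors and thereby lowers canonical Wnt signalling. The locus is known for long-range control: in people with van Buchem disease a deletion downstream of SOST removes an enhancer and leaves the protein itself intact. A targeted allele can also carry a selection or reporter cassette and flanking DNA of the strain in which it was made, so the neighbours of a targeted gene are commonly inspected in knockout comparisons. The question put to the 48 genes was whether differences between double mutant and wild type gathered beside the targeted gene. On these arrays a probe set is a group of short probes for a transcript, many genes have several, and the ending of its name tells how specific it is: a marks several transcripts of a gene, s a sequence that several transcripts share, and x some probes that may match other transcripts. The brightest probe set of a gene, by its mean in all 5 arrays, gave the main value, and the others served as a check.

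Values are log2 intensities of single probe sets, and a difference is double mutant minus wild type with limma's standard error. A difference was called at a Benjamini-Hochberg adjusted p under 0.05 over all 45037 probe sets. Array medians lay between 39.4 and 44.4 on the linear scale. A measure from outside the mouse genome also differed between the groups: the manufacturer's Dap control, a bacterial transcript meant to be spiked into samples, read 6.90 and 7.28 in the double mutants against 3.31, 3.23 and 3.36 in wild type. Gapdh signal at the 3' end minus that at the 5' end was 0.21 ± 0.08 (SD, n = 2) against −0.10 ± 0.04 (SD, n = 3), with an exact two-sided permutation p of 0.1, the smallest that 10 splits allow. For Actb the same measure read 0.65 and 0.56 against 0.20, 0.24 and 0.68, so that the groups overlapped (exact two-sided permutation p = 0.4). For the differences below, how the samples were prepared and their genotype cannot be told apart. All 5 limb mesenchyme markers, Prrx1, Tbx5, Twist1, Msx1 and Hand2, were brighter than the median probe set (5.41), and 0 of the 5 were called. Their summed linear level was 12400 to 13200 in double mutants and 12100 to 12500 in wild type. Markers of surface ectoderm were higher (3 of 6 called, summed level 4330 to 4340 against 2700 to 2960). Among markers of endothelium 3 of 6 were called lower, Pecam1 (−1.98), Tie1 (−0.96) and Esam (−0.38). The others, Cdh5, Kdr and Tek, hardly differed (−0.06, −0.03 and −0.06), and the summed level was 970.0 to 1070 against 1360 to 1500. Of all genes above the median level, 21% were called in either direction. Among red cell markers 2 of 5 were called lower, Alas2 (−1.89) and Hba-x (−0.45), with a summed level of 44200 to 49400 against 50100 to 53600. The bright globin genes Hbb-y and Hbb-bh1 hardly differed (−0.01 and −0.02). Hba-a1 was dim and not called (0.17). Macrophage markers had 0 of 5 called and a summed level of 596 to 774 against 844 to 950.0. The part of these cell types in the differences below was not tested. In such whole-tissue RNA, fewer cells of a type and less RNA per cell cannot be told apart.

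The targeted gene was lower on its brightest probe set. Sost on 1450179_at read 4.16 and 4.43 in double mutants and 6.75, 6.19 and 6.47 in wild type. The groups lay well apart, by −2.17 ± 0.20 (adjusted p = 0.0091), a 4.51-fold lower linear level in double mutants, and by −1.55 ± 0.16 with 16 added before log2 (adjusted p = 0.012). The second Sost probe set, 1421245_at, was dimmer and not called (−0.73 ± 0.34, adjusted p = 0.237). Sostdc1, which is not on chromosome 11, was likewise lower on 1460250_at (−2.35 ± 0.37, adjusted p = 0.0233) and close to equal on its brightest probe set, 1449340_at (0.05 ± 0.09, adjusted p = 0.775). Probes that lie outside a deletion do not check it, and their positions were not known here.

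Of the 48 measured neighbours, 4 rose in double mutants, 12 fell and 32 were not called. Mpp3, Fam171a2, Brca1 and Ubtf were higher, and Dcakd, Dhx8, Psme3, Mpp2, Hexim1, G6pc3, Grn, Ppy, Rundc1, Nags, Nmt1 and Eftud2 were lower. The share called higher was 8.33%, against a background of 6.56% of all 18193 genes, and the share called lower was 25%, against 8.14%. Together 33.3% were called, against 14.7% of all genes. Of all 18193 genes, 11537 exceeded the level of the median probe set. Of the neighbours 39 of the 48 did, so they were brighter than genes at large. In that bright subset 14 of 39 were called (35.9%), against 21% of all genes above that level, and below it 2 of 9, Ppy and Nags, against 3.83%. The median difference over the 48 was −0.083, against −0.018 over all genes, and 16 differences were above 0. In 27 of the 48 (56.2%) the double mutant and wild type arrays did not overlap, against 43.2% of all genes. With array medians set equal, 2 of 48 were called higher and 12 lower, while 15.3% of all genes were called in either direction. Brca1 and Ubtf were no longer called, so that 14.3% of the called neighbours were higher in place of 25%. The list was drawn up with earlier results of these arrays known, and members and background are set side by side here as a description.

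**Figure D1:**
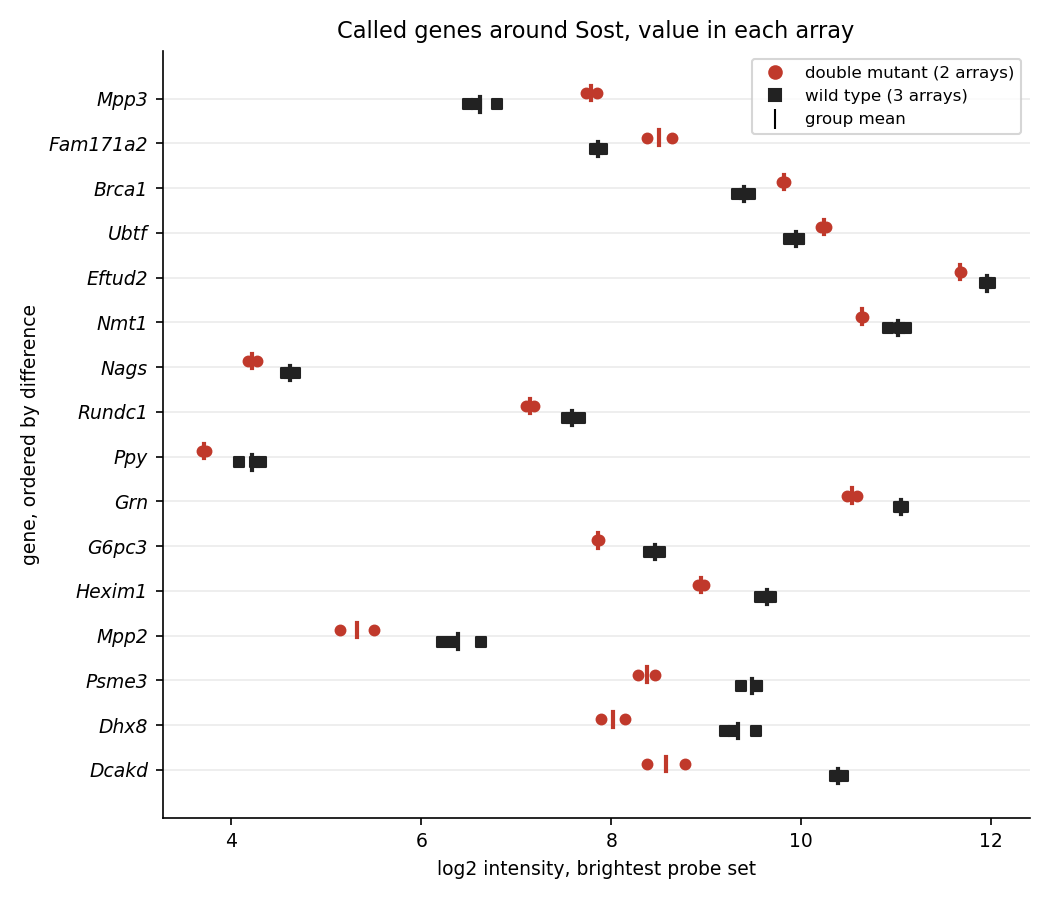
Log2 intensity (x axis) of the brightest probe set of the 16 called neighbours of Sost (y axis, ordered by difference), with a point for each of the 2 double mutant and 3 wild type arrays and a bar at each group mean. Of the 16 genes, 4 are higher and 12 lower in double mutants. They were picked by their calls on these arrays, and the groups do not overlap in any of them, against 43.2% of all genes.

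The number of calls fell whichever array was left out, and the reason was not tested. Without double mutant replicate 1, or without wild type replicate 2, limma called 0 of 48 neighbours and 0 of all genes, although 20 and 18 of the 48 (41.7% and 37.5%) then had an unadjusted p under 0.05, against 32.1% and 21.2% of all genes. Without double mutant replicate 2 there were 1 higher and 6 lower, with 7.17% of all genes called. Without wild type replicate 1 there were 1 and 7, with 4.2% of all genes called, and without wild type replicate 3 there were 2 and 8, with 7.23%. All 16 differences kept their sign whichever array was left out, which was bound to happen because the groups of these genes do not overlap. Psme3, G6pc3, Grn, Dcakd and Hexim1 were called in 3 of the 5 such fits, and Mpp2, Nags, Ubtf and Eftud2 in 0. Where a single double mutant array was left, it was assumed to vary like the wild type arrays.

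The nearest measured genes on the Brca1 side of Sost are, going outward, 4930417O22Rik, Meox1, Etv4, Dhx8 and Rdm1, of which Dhx8 alone belongs to the list of 50. Dhx8, an RNA helicase that releases spliced mRNA from the spliceosome, read 8.14 and 7.89 in double mutants and 9.20, 9.52 and 9.28 in wild type. Both double mutant arrays lay more than 1 log2 unit below every wild type array, and Dhx8 fell by 1.32 ± 0.14 (SE, adjusted p = 0.0110). Meox1, a mesodermal homeobox gene, fell by 0.47 ± 0.10 (SE, adjusted p = 0.0446). Etv4, an ETS factor induced by FGF signalling in the limb, rose by 0.56 ± 0.08 (adjusted p = 0.0180), and by 1.93 ± 0.21 on its dimmer probe set (adjusted p = 0.0123). The next gene to Sost, 4930417O22Rik, averaged 3.61 against 3.36 in wild type (adjusted p = 0.489), and Rdm1 had 8.71 and 8.63 (adjusted p = 0.445). Adjacent genes on this side thus carried calls of opposite sign, with Etv4 higher between Dhx8 and Meox1, both lower.

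On the other side the nearest measured genes are Dusp3, Cfap97d1, Mpp3, Cd300lg and Mpp2. Dusp3, a dual-specificity phosphatase that acts on MAP kinases, comes first. It read 7.64 and 7.38 in double mutants and 7.72, 7.81 and 7.94 in wild type, a difference of −0.31 ± 0.11 that was not called (adjusted p = 0.15). Its 2 dimmer probe sets differed by −0.32 ± 0.14 (adjusted p = 0.224) and −0.42 ± 0.07 (adjusted p = 0.0238), so that all 3 pointed down and the dimmest was called. Cfap97d1 was dim and held the same value, 2.95, in every array, so a change could be missed. Mpp3, a membrane-associated guanylate kinase scaffold, read 7.85 and 7.73 in double mutants and 6.80, 6.57 and 6.49 in wild type. It rose by 1.17 ± 0.12 (adjusted p = 0.0101), a 2.25-fold higher linear level and the largest rise among the 48 on the brightest probe set, while its dim second probe set stood at −0.02 (adjusted p = 0.791). Mpp2, a scaffold of the same family, went the other way. It read 5.14 and 5.50 in double mutants against 6.22, 6.32 and 6.63 in wild type and fell by 1.07 ± 0.18 (SE, adjusted p = 0.0270). Cd300lg, which lies between them and is a surface protein of capillary endothelium, was dim at 3.50, 3.58, 3.58, 3.62 and 3.58 (adjusted p = 0.504), so a change could be missed.

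The promoter windows of Sost and of its nearest listed neighbour on each side are shown for the local sequence context of these values. Each runs from 250 bases before to 50 after the annotated start of the gene in RefSeq, build GRCm38.p6, and capitals mark each CG dinucleotide. The windows are chr11:101966966-101967265 on the minus strand for Sost, chr11:101732706-101733005 on the plus strand for Dhx8 and chr11:101984742-101985041 on the minus strand for Dusp3.
Sost: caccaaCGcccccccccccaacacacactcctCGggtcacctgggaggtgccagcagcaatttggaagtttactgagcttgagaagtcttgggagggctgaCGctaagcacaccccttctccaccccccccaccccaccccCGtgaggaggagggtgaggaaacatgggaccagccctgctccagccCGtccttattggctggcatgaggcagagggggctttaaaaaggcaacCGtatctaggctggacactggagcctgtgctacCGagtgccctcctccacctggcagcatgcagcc
Dhx8: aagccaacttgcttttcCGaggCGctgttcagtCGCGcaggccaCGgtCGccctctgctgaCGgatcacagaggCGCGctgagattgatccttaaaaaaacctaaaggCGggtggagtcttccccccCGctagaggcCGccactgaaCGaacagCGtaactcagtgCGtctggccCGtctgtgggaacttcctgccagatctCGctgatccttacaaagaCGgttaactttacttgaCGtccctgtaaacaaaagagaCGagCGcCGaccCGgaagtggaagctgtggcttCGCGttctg
Dusp3: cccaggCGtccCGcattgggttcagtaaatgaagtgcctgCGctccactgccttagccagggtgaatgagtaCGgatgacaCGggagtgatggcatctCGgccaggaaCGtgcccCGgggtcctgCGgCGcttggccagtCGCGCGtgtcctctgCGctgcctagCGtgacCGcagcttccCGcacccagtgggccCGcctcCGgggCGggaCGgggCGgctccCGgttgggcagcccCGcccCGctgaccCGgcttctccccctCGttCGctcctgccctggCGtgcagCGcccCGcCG
The Sost window holds 7 CG dinucleotides, which is the median of 32851 promoter windows. The Dhx8 window holds 25 and the Dusp3 window 32, counts reached by 18.4% and 9.52% of all windows. Promoters of 36 of the 50 genes were in the table, and 28 of them had at least the median count. The arrays do not measure methylation or binding at these windows.

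Counting outward in the order of measured genes, listed or not, the 10 nearest on each side of Sost held 8 called genes of 20 (40.0%), 3 higher and 5 lower, with 4 called on each side. At 11 to 25 places away 8 of 30 were called (26.7%), at 26 to 50 places 8 of 50 (16%) and at 51 to 100 places 9 of 100 (9%). Farther along chromosome 11 the share was 15.7% of 1251 genes, and on the other chromosomes 14.6% of 16693. Among genes above the median level the shares from the nearest band outward were 42.9% of 14, 29.6% of 27, 21.9% of 32 and 17.0% of 47, then 22.2% on the rest of the chromosome and 20.8% elsewhere. The share called was smaller in each band outward over the first 100 places in both counts, with calls of both signs in every band, and this order was not tested. From the nearest band outward, 14 of 20, 23 of 30, 11 of 50 and 0 of 100 genes were on the list. Distance from Sost and membership of the list therefore cannot be told apart in this order. The nearest band is small, and its 8 calls became 0 without double mutant replicate 1, double mutant replicate 2 or wild type replicate 2, 5 without wild type replicate 1, 3 without wild type replicate 3, 1 with a replicate block and 4 of 8 by the second brightest probe set. At an unadjusted p under 0.05, 12 of its 20 genes passed with all arrays, against 28.7% of all genes, and 8 to 10 with any array left out, against 21.2% to 32.1%. Its 8 called genes were Brca1, Dhx8, Etv4, Meox1, Mpp3, Mpp2, Ppy and Nags. Genes within 50 places that are not on the list were called in 8 of 52 cases (15.4%), near the background of 14.7%, and the listed 48, all within 50 places, in 33.3%. The median difference ran from −0.050 in the nearest band to −0.093 at 26 to 50 places, against −0.017 on other chromosomes.

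**Figure D2:**
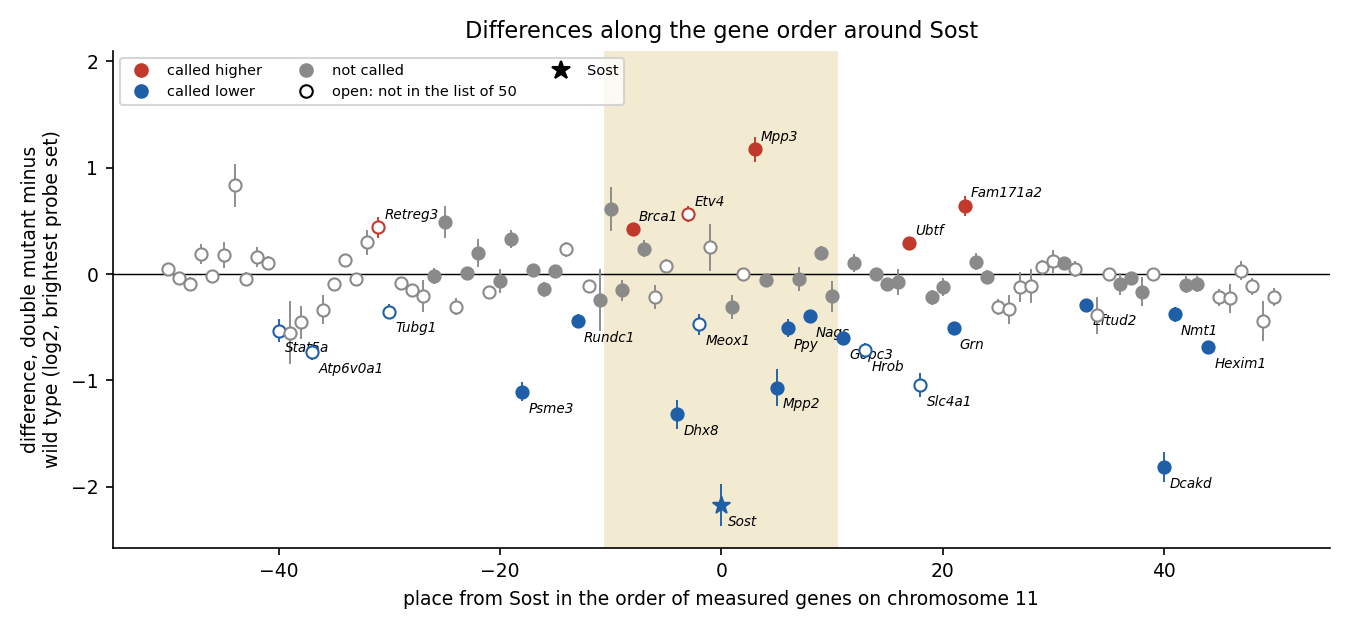
Difference between double mutant and wild type (y axis, log2, brightest probe set, bars are limma's standard error) by place from Sost in the order of measured genes on chromosome 11 (x axis); filled points are listed genes, open points other genes, and the shaded band marks 10 places on each side. Called genes of both signs lie in the band (3 higher, 5 lower) and outside it, where Dcakd at 40 places has the largest fall.

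**Figure D3:**
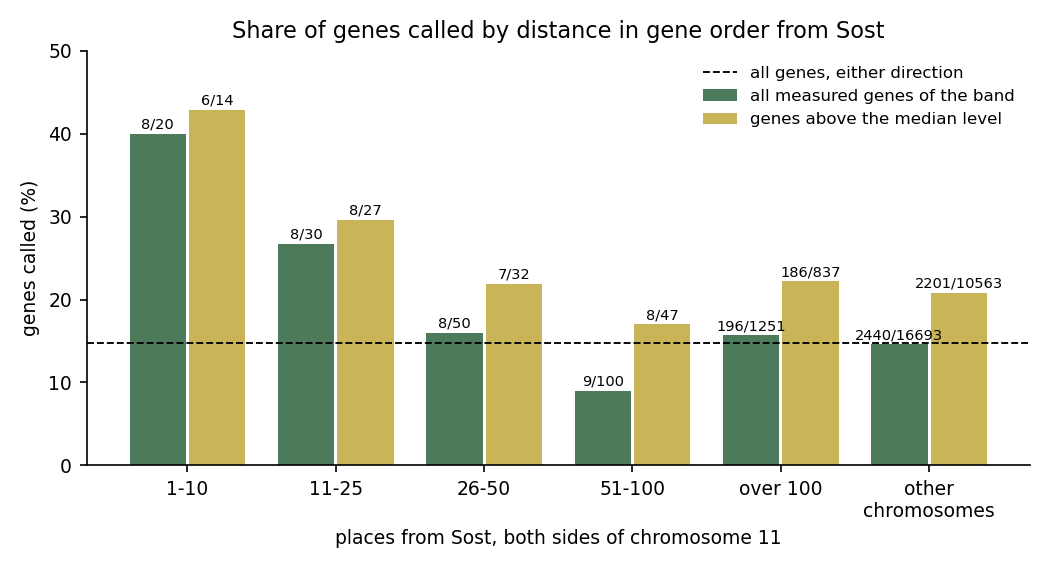
Percent of genes called in either direction (y axis) by distance from Sost in gene order (x axis), for all measured genes of a band and for those above the median level, with called and measured genes printed on each bar and a dashed line at the share of all genes. The share goes from 40.0% in the nearest band to 9% at 51 to 100 places, and listed genes go from 14 of 20 to 0 of 100.

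Ppy and Nags, the other called genes of the nearest band on the Hexim1 side, were both dim. Ppy, the gene of pancreatic polypeptide, read 3.69 and 3.73 in double mutants and 4.08, 4.25 and 4.31 in wild type and fell by 0.50 ± 0.09 (SE, adjusted p = 0.0284). Nags, which makes the activator of the urea cycle, read 4.17 and 4.27 against 4.67, 4.61 and 4.57 and fell by 0.40 ± 0.06 (SE, adjusted p = 0.0221). Neither pair of groups overlaps, as in 43.2% of all genes, and both genes lie below the median level. With 16 added before log2, the differences were −0.25 for Ppy and −0.23 for Nags (adjusted p = 0.0383 and 0.0247). The gut hormone gene Pyy, next to Ppy, averaged 5.62 and 5.67 (adjusted p = 0.817). C1ql1, a secreted protein of neurons, was the third gene of the hormone and secreted group and was not called (−0.17, adjusted p = 0.450).

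Genes of chromatin and transcription were called in 3 of 7 cases on the brightest probe set, 2 higher and 1 lower, against 14.7% of all genes. The groups by role, here and below, are small, and none was tested as a group. Hexim1, which holds the elongation factor P-TEFb inactive, read 8.91 and 8.98 in double mutants and 9.65, 9.68 and 9.57 in wild type and fell by 0.69 ± 0.06 (SE, adjusted p = 0.00846). Its second probe set fell too, by 0.46 ± 0.07 (SE, adjusted p = 0.0237), so Hexim1 was lower on both of its probe sets. Brca1, the DNA repair gene, and Ubtf, the RNA polymerase I factor that activates ribosomal RNA genes, were higher on the brightest probe set and lower on others, as given below. Ezh1, a histone H3 lysine methyltransferase of the Polycomb group, read 6.99 and 6.64 against 6.29, 6.5 and 6.19 (0.49 ± 0.15, adjusted p = 0.106). Another Ezh1 probe set pointed the other way (−0.42, adjusted p = 0.177). Hdac5, Atxn7l3 and Gpatch8 differed by 0.10, −0.07 and −0.03, with adjusted p of 0.475, 0.716 and 0.805.

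The RNA splicing group had 2 of 3 genes lower, against 8.14% of all genes. Beside Dhx8, Eftud2, the GTPase of the U5 spliceosomal particle, read 11.67 and 11.68 in double mutants and 11.99, 11.93 and 11.96 in wild type. The arrays of each group were tight, and Eftud2 fell by 0.29 ± 0.05 (SE, adjusted p = 0.0254), and on 1416557_a_at it fell by 0.68 ± 0.07 (SE, adjusted p = 0.0120). Lsm12, an Sm-like protein, was not called on its brightest probe set (−0.21 ± 0.15, adjusted p = 0.392). The next one, 1429509_at, read 8.77 and 8.74 against 8.06, 7.64 and 7.49 and rose by 1.03 ± 0.19 (adjusted p = 0.0329).

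Among genes of metabolism, 3 of 9 measured fell and 0 rose, against 8.14% and 6.56% of all genes. Dcakd, which encodes a protein with a dephospho-CoA kinase domain, showed the largest difference of the 48 on the brightest probe set: 8.37 and 8.78 in double mutants against 10.38, 10.35 and 10.44 in wild type. It fell by 1.81 ± 0.14 (SE, adjusted p = 0.00744), to a linear level 3.51-fold lower, at 40 places from Sost. G6pc3, the broadly expressed glucose-6-phosphatase, read 7.85 and 7.87 against 8.40, 8.46 and 8.51 and fell by 0.60 ± 0.05 (SE, adjusted p = 0.00895). Its liver counterpart G6pc averaged 3.22 and 3.36, too dim for a statement on change (adjusted p = 0.270). Nags was the other gene of this group that fell. Vat1 read 7.73 and 8.11 against 7.02, 7.38 and 7.54 (0.61 ± 0.21, adjusted p = 0.129), with its 2 other probe sets at −0.05 and −0.65. Aarsd1 (0.03), Aoc3 (0.04), Acbd4 (−0.09) and the mitochondrial carrier Slc25a39 (−0.12) were not called on their brightest probe sets.

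Of the 6 measured genes grouped as signalling enzymes and GTPases, 2 fell and 0 rose, against 8.14% and 6.56% of all genes. The group's name does not describe the 2 that fell, a proteasome activator and an enzyme that attaches myristate to proteins. Psme3, the PA28 gamma activator of nuclear proteasomes, read 8.28 and 8.46 in double mutants and 9.53, 9.53 and 9.37 in wild type. It fell by 1.11 ± 0.09 (SE, adjusted p = 0.00799), a 2.15-fold lower linear level, and fell by 1.57 ± 0.16 (SE, adjusted p = 0.0108) on 1418078_at, so the fall appeared on both of its brighter probe sets. Nmt1, which attaches myristate to proteins, fell on its brightest probe set and is given below. Wnk4, a kinase that controls ion transport in the kidney (0.20), and the phospholipase Plcd3 (−0.10) were not called, with adjusted p of 0.364 and 0.455.

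Autophagy, lysosome and trafficking genes had 1 of 4 lower, against 8.14% of all genes. Grn, the gene of progranulin, a secreted and lysosomal glycoprotein, read 10.48 and 10.59 in double mutants and 11.04, 11.03 and 11.07 in wild type and fell by 0.51 ± 0.05 (SE, adjusted p = 0.0113). Its second probe set also fell by 0.51 ± 0.09 (SE, adjusted p = 0.0330), and the third stood at −0.22 ± 0.08 (adjusted p = 0.163). The 2 called ones, 1438629_x_at and 1456567_x_at, have the ending that marks possible matches to other transcripts, and the uncalled 1448148_at does not. Becn1, a core autophagy gene, read 10.32 and 10.33 against 9.88, 9.98 and 10.12 (0.33 ± 0.09, adjusted p = 0.0758), while its next probe set stood at −0.13 (adjusted p = 0.133). Vps25, a subunit of the ESCRT-II complex, differed little on its own probe set (0.01 ± 0.05, adjusted p = 0.943). Each of the 2 probe sets assigned to both Ramp2 and Vps25 was called lower, by −0.79 ± 0.15 and −0.48 ± 0.05 (adjusted p = 0.0362 and 0.0125), and these cannot be given to either gene.

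Membrane, adhesion and junction genes were called in 3 of 8 cases, with Mpp3 and Fam171a2 higher and Mpp2 lower, against 14.7% of all genes. Fam171a2 read 8.37 and 8.64 in double mutants and 7.90, 7.83 and 7.86 in wild type and rose by 0.64 ± 0.10 (adjusted p = 0.0212). Its 2 dimmer probe sets pointed down without a call (−0.64, adjusted p = 0.0578, and −1.15, just at the threshold). Itga2b, the platelet integrin subunit, averaged 6.89 ± 0.12 in double mutants and 6.77 ± 0.08 in wild type (SD, n = 2 and 3, adjusted p = 0.392). Of the 5 measured megakaryocyte and platelet markers, Itga2b included, 2 were called higher, Pf4 (0.69) and Ppbp (0.77). Gp9 and Gp1bb were not called (−0.08 and 0.06). The summed level was 1360 to 1530 against 935.0 to 1010. All 5 were above the median level, where 21% of all genes were called in either direction. Gjc1, the connexin 45 gene, averaged 11.3 and 11.2 (adjusted p = 0.266), and Tmem101 8.82 and 8.61 (adjusted p = 0.110). Cntnap1, a protein of myelinated axons, was dim, with means of 3.75 and 3.77.

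The remaining genes gave 1 call in 8, against 14.7% of all genes. Rundc1 read 7.19 and 7.10 in double mutants and 7.57, 7.67 and 7.53 in wild type and fell by 0.44 ± 0.07 (SE, adjusted p = 0.0207). Gfap, the intermediate filament of astrocytes, averaged 4.2 in double mutants and 4.29 in wild type on its brightest probe set, and 0 of the 3 measured glial and Schwann precursor markers, Gfap included, were called. The mitotic kinesin gene Kif18b averaged 8.81 and 8.85 (adjusted p = 0.595). Cntd1, known for its part in meiotic crossing over, was not called on 1439405_x_at (means of 11.62 and 11.68), whose ending marks possible matches to other transcripts, and fell on 1460686_at, from 6.78 ± 0.09 (SD, n = 3) to 6.28 ± 0.02 (SD, n = 2) (adjusted p = 0.0178). The interferon-induced gene Ifi35 (−0.24), Tmub2 (−0.10) and Rundc3a (−0.22) were not called. Asb16 read 5.03 in every array. Among all 32 uncalled genes, differences ran from −0.31 to 0.61 and adjusted p from 0.0758 to 1, and 31 of the 32 differed by less than 0.5 log2 units.

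Probe sets of the same gene often disagreed. Of the 48 genes, 23 had 2 or more probe sets, up to 5, for 46 beyond the brightest. Of these 46, 2 were called higher (4.35%) and 12 lower (26.1%), against 8.66% and 15% of the other probe sets of all genes. Calls in both directions within a gene occurred in 3 of the 23 (13.0%), Brca1, Ubtf and Nmt1, against 5.05% of 9010 genes with 2 or more probe sets. A further 5 genes, Cntd1, Nbr1, Dusp3, Lsm12 and Slc25a39, were called on a dimmer probe set and not on the brightest. Counted over every probe set, 21 of 48 genes had a call and 27 had none. Neither this count nor that of the 5 genes was made over all genes, so no background stands beside them. A gene with more probe sets has more chances of a call.

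Ubtf gave the widest split. Its brightest probe set, 1453097_a_at, read 10.21 and 10.26 in double mutants and 9.87, 9.98 and 9.98 in wild type (0.29 ± 0.06, adjusted p = 0.0406). The other, 1460304_a_at, read 5.26 and 5.77 against 9.06, 8.77 and 7.84 and fell by 3.04 ± 0.43 (SE, adjusted p = 0.0191), the largest difference on any probe set of the 48 genes. Linear levels on that probe set were 8.23-fold lower in double mutants. Nmt1 read 10.63 and 10.65 against 11.10, 11.04 and 10.91 on 1415683_at (−0.38 ± 0.07, adjusted p = 0.0368), rose on 1454941_at by 0.31 ± 0.06 (adjusted p = 0.0321), and on the dimmest, 1418082_at, it fell by 1.29 ± 0.12 (SE, adjusted p = 0.00959). The carrier gene Slc25a39 fell by 1.03 ± 0.10 on 1453111_a_at (SE, adjusted p = 0.00963), with its 4 other probe sets between −0.12 and 0.10. Of these, 1439410_x_at, 1456176_x_at and 1447783_x_at have the ending that marks possible matches to other transcripts, and 1440118_at was dim (mean 4.87). Whether such probe sets report different transcripts or ends of a gene was not tested.

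Brca1 and its neighbour Nbr1 both had probe sets of opposite direction. On its brightest probe set Brca1 read 9.83 and 9.80 in double mutants and 9.40, 9.32 and 9.46 in wild type, a rise of 0.42 ± 0.06 (adjusted p = 0.0187). On 1451417_at it read 6.65 and 6.83 against 8.04, 8.04 and 7.78 and fell by 1.21 ± 0.11 (SE, adjusted p = 0.00938), and on 1424630_a_at it fell by 1.47 ± 0.18 (SE, adjusted p = 0.0145). Nbr1, a receptor that carries ubiquitinated cargo to autophagosomes, read 11.19 and 10.96 against 10.80, 10.87 and 10.84 on its brightest probe set, which was not called (0.24 ± 0.08, adjusted p = 0.135). Its other probe set read 7.77 and 7.56 against 9.50, 9.53 and 8.99 and fell by 1.68 ± 0.21 (SE, adjusted p = 0.0146). In both genes, then, the arrays of the groups were apart in opposite directions on the brightest probe set and on the called dimmer ones. Of the listed genes adjacent in the measured order that are transcribed away from each other, Dcakd and Nmt1 both fell on the brightest probe set (−1.81 and −0.38), Slc25a39 and Grn stood at −0.12 and −0.51, and Pyy and Nags at −0.05 and −0.40. Their starts lie 11396 to 37681 bases apart, and those of Brca1 and Nbr1 only 152.

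The Brca1 and Nbr1 promoters are shown because the 2 windows overlap, so that the pair shares its start region. They are chr11:101551906-101552205 on the minus strand for Brca1 and chr11:101551857-101552156 on the plus strand for Nbr1, from RefSeq build GRCm38.p6, each 5' to 3' on its own strand. Capitals mark the 251 bases that lie in both windows, read from opposite strands.
Brca1: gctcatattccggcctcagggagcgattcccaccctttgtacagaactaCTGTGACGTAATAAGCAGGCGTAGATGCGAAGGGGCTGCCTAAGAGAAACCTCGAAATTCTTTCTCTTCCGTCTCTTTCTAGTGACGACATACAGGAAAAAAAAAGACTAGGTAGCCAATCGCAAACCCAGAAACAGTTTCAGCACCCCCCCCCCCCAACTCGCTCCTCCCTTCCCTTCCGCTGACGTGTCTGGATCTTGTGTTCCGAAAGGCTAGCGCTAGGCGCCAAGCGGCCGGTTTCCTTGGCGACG
Nbr1: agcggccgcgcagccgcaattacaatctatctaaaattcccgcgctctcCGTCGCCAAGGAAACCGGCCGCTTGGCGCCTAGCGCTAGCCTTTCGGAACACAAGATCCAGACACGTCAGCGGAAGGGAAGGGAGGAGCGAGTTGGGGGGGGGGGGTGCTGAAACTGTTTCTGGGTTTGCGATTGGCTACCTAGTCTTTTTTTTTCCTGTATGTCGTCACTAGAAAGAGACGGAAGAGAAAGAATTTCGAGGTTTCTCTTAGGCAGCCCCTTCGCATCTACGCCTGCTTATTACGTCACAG
The full windows hold 19 and 23 CG dinucleotides.

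**Figure D4:**
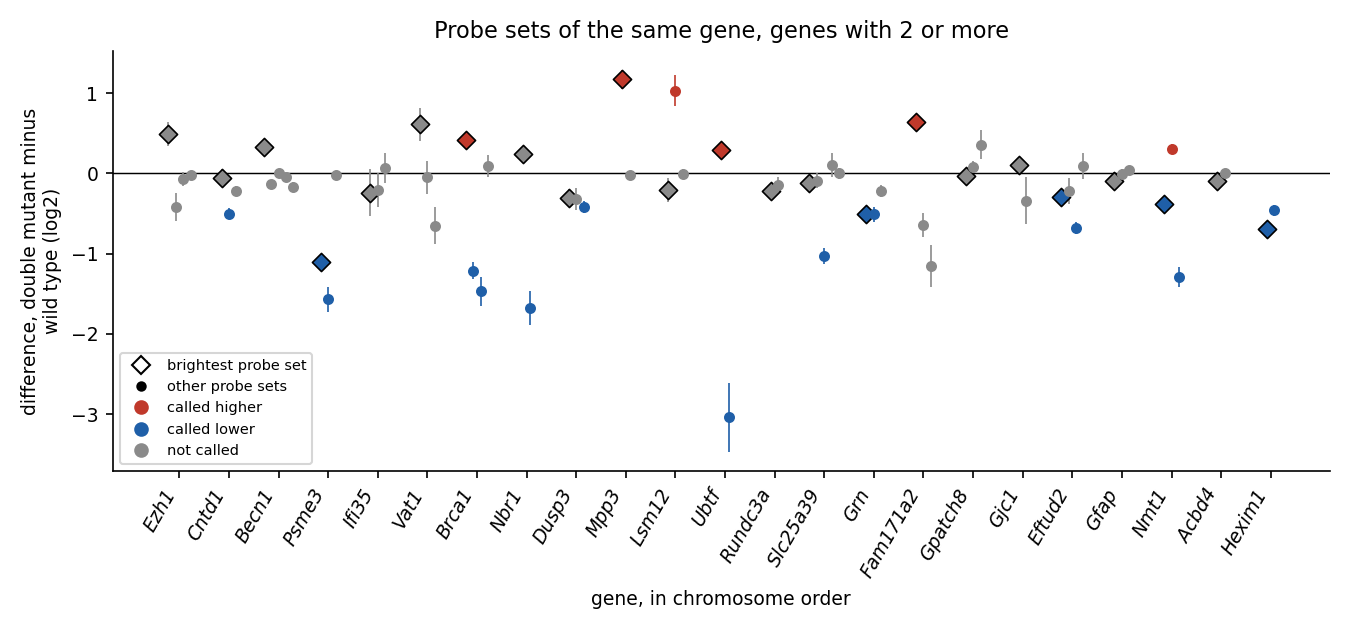
Difference between double mutant and wild type (y axis, log2, bars are limma's standard error) for every probe set of the 23 listed genes with 2 or more, in chromosome order (x axis); diamonds mark the brightest probe set of each gene and circles the others. Brca1 and Ubtf have a called rise on the diamond and called falls on circles, and Nmt1 has calls of both signs.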

How the data were processed

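RNA of 5 forelimb bud samples was measured on single-channel Affymetrix arrays, with biotin labelling in 2 amplification rounds per the labels' protocols. The values deposited by the authors are linear intensities of summarised probe sets. RMA and limma are named, with no role or version, in the submitters' processing notes, and the step that gave a linear scale is not given in the sources used here. Apart from log2, no further normalization was applied. The 64 control probe sets of the manufacturer were dropped from 45101. Platform annotation gave 34945 probe sets 1 symbol, 932 several and 9160 none. All 48 measured members matched the reference gene table (GRCm38.p6), which gave gene order, the unit of distance.

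Groups were compared with limma 3.58.1 (R 4.3.3; eBayes without trend, two-sided, 3 residual and 1.29 prior degrees of freedom) over 45037 probe sets, and the fit was tested on simulated data. Alternatives were equal medians, quantile normalization, 16 added before log2, an intensity trend, a filter on dim probe sets, a replicate block, each array left out, and other probe sets per gene. The number of arrays limits precision, and 37 of the 94 member probe sets held a value repeated in 2 or more arrays. All called members (the rule allowed 15 in full, by smallest p; the 16th, Ubtf, entered for its opposed probe sets), members within 5 places of Sost and those with opposed calls were named in full, and non-members within 5 places were named; any other gene or value named was picked after seeing it. Members and lists were chosen with earlier results of these data known. The value of 1 uncalled member, which is in all counts, is not reported here.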

Additional observations from a re-analysis of the deposited data

How the results depend on the processing

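Quantile normalization, 16 added before log2, an intensity trend and the filter on dim probe sets left every count within 1.5 times of the values above, and the called members and nearest genes that could be fitted kept their calls there. Adding 16 moved Sost to −1.55, Ppy to −0.25, Nags to −0.23 and the uncalled 4930417O22Rik to 0.10. With equal array medians 2 members and 3 member probe sets were called higher. In either direction 15.3% of all genes and 21.4% of all probe sets were then called. The median over members was −0.174 (−0.108 over all genes), and the uncalled Sostdc1, Rdm1 and Cfap97d1 stood at −0.05, −0.01 and −0.09. Averaging the probe sets of a gene gave 1 member higher and 17 lower, with 21.5% of all genes called. The second brightest probe set, which 23 members have, gave 2 higher, 7 lower, a median of −0.219 and 4 of 8 genes called within 10 places of Sost, with 23.3% of all such genes called. With a replicate block, 1 member was higher (Mpp3) and 0 lower, and 1 gene within 10 places was called, with 1.25% of all genes called. Of the 94 member probe sets 1 was higher and 4 lower, with 5.22% of all probe sets called. Sost stood at −2.18 (adjusted p = 0.0822). At an unadjusted p under 0.05, 18 of 48 members passed with this block (37.5%), against 20.7% of all genes. Replicate numbers are shared in the labels with no stated meaning, and deviations of arrays with the same number correlated at 0.0895 and 0.12.

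With 1 array left out at a time, members called higher numbered 0 to 2 and lower 0 to 8, member probe sets higher 0 to 3 and lower 0 to 20, and genes called within 10 places 0 to 5. The median over members lay between −0.093 and −0.043, the Sost difference from −2.32 to −2.03, and for Sostdc1 from −0.02 to 0.11. The Sost call was lost without double mutant replicate 1 or 2 or wild type replicate 2 (adjusted p = 0.0675, 0.0529 and 0.0595). Why these calls were lost was not tested. Background correction could not be varied on summarised values, and no detection calls were used, so dim members such as Ppy, Nags, Cd300lg, G6pc and Gfap have only uncertain differences.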
